A study of Mus musculus with 6 samples.

Results

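The DNA replication machinery was followed through 46 genes of the 17469 in the count table, matched by gene symbol. The list holds subunits of the replicative helicase, origin licensing factors, the sliding clamp and its loader, DNA polymerases, and genes for Okazaki fragment maturation, single-strand DNA binding, nucleotide supply and chromatin assembly. It was drawn up with the comparison of the genotypes already known, so the differences between genotypes given for these 46 genes are a description and carry no test. All 46 passed edgeR's filter on low counts and entered the fit across 12701 genes.

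The cells were tdTomato+ bone marrow stromal cells (BMSCs, marrow cells that attach and grow in a dish) from mice aged 6 months, purified after culture by fluorescence-activated cell sorting and profiled by bulk RNA-seq. The control genotype was Ocn-Cre;Ai9, in which Cre runs from the osteocalcin promoter and the Ai9 allele switches on tdTomato in any cell where Cre has acted and in its descendants. The second genotype, TgAPPswe;Ocn-Cre;Ai9 (TgAPPsweOCN below), carried both of these alleles and a human APP transgene with the Swedish mutation, driven by the CAG promoter and held off by a stop cassette until Cre removes it. Lines were kept on a C57BL/6 background, 3 libraries were made per genotype, and the number of mice behind each library is not clearly stated for the RNA-seq, so the error between libraries may be technical.

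Control libraries held 19340810 to 19801060 estimated counts and TgAPPsweOCN libraries 21677461 to 22037840, so 3 counts, taken as the smallest detectable level, stood for 0.136 to 0.155 CPM (counts scaled to the library total). App, the mouse counterpart of the transgene, had 17676 to 17923 counts in controls and 23272 to 23540 in TgAPPsweOCN (log2 fold change 0.45, adjusted p = 7.9e-05, edgeR). The genome build was that of the mouse, so any transgene reads counted as App cannot be told apart from it. Marker levels did not show a purely osteoblast-lineage population. Bglap, which encodes osteocalcin, had 0 to 10 counts per library, while 15 myeloid markers summed to 25060 to 26680 FPKM (fragments scaled by gene length and library total) in controls and 19390 to 23050 in TgAPPsweOCN, with 8 called lower and 5 higher. The 15 stromal and osteoblast-lineage markers summed to 1135 to 1222 FPKM in controls and 651.6 to 913.3 in TgAPPsweOCN, with 4 of the 14 tested called lower and 2 higher, a share called lower below the 31.5% of all genes (32.5% were higher). Both sums were lower in TgAPPsweOCN, as most replication genes were, and their part in the results was not tested. The myeloid sum hides changes in both directions, with log2 fold changes from -2.38 (Mrc1) to 2.04 (Aif1). FPKM is not TMM-scaled, and on the log2(FPKM + 1) scale the median of all genes was itself at -0.16. Lyz2, a lysozyme gene with 5379 to 9263 FPKM and so a large part of the myeloid sum, did not pass on the TMM scale (log2 fold change -0.16, edgeR adjusted p = 0.418). Spp1, which macrophages also express, made up most of the stromal sum (869.8 to 1000.0 FPKM in controls, 481.2 to 671.5 in TgAPPsweOCN), and the other 14 stromal markers overlapped between genotypes, at 221.2 to 265.1 and 170.4 to 241.8 FPKM. Neutrophil markers (12.83 to 53.71 FPKM in controls, 18.39 to 51.65 in TgAPPsweOCN) overlapped between genotypes, and markers of B cells, T and NK cells, erythroid and endothelial cells summed to at most 6.88 FPKM in any library. In bulk RNA, fewer cells of a type and less RNA per cell cannot be told apart.

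Before a cell divides, it copies its genome once. The origin recognition complex (ORC), with Cdc6 and Cdt1, loads the ring of Mcm2 to Mcm7 onto DNA. Cdc45 and GINS turn the ring into the active CMG helicase, polymerases copy the opened strands while held by the Pcna clamp, and ligase joins the fragments of the lagging strand. Many of these genes are transcribed at the start of S phase under E2F transcription factors, and their mRNAs are commonly read as signs of cycling cells.

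Of the 46 genes, 41 (89.1%) were lower in TgAPPsweOCN at an adjusted p of 0.05 or less, the threshold used throughout, beside 31.5% of all 12701 genes. Orc2 was the single gene called higher, beside 32.5% of all genes, and Mcm10, Rfc1, Rfc4 and Rpa1 did not pass. With a log2 fold change of -1 or less as well, 10 were called (Mcm2, Mcm5, Mcm7, Pole, Pole2, Lig1, Dna2, Rrm2, Tk1 and Dut), beside 9.2% of all genes. The adjusted p together with a log2 fold change of 1 or more was reached by 8.9% of all genes, and Orc2 was below that fold. The libraries of the genotypes did not overlap for 40 genes with TgAPPsweOCN lower, beside 34.9% of all genes, and for Orc2 with TgAPPsweOCN higher, beside 34.8%. The median log2 fold change was -0.64, against -0.02 over all genes tested. Because the list was chosen with this contrast known, nothing is read from these shares. Scaling by library size alone changed the split of all calls from 4007 lower and 4122 higher to 5826 and 2806, and moved the median of all genes to -0.23 and that of the 46 genes to -0.85.

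**Figure D1:**
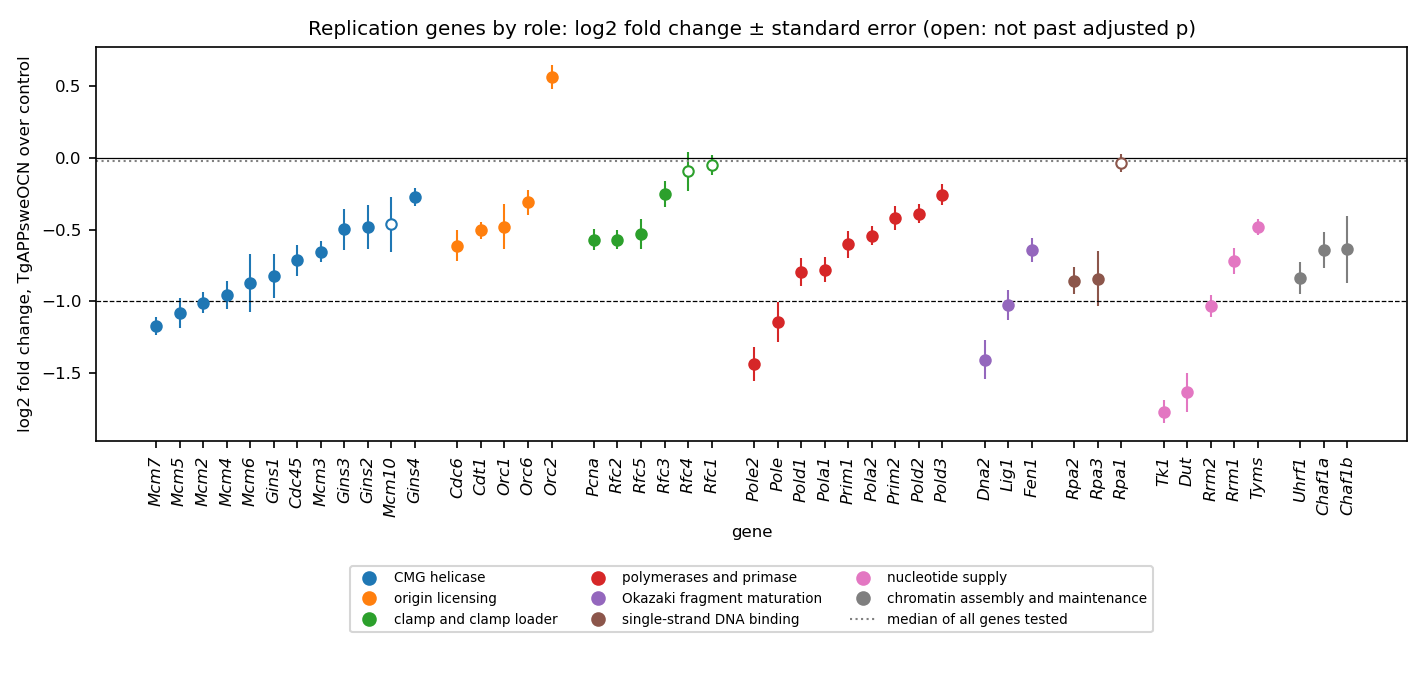
Log2 fold change of TgAPPsweOCN over control (vertical axis) for the 46 genes, grouped by role along the horizontal axis. Points are edgeR estimates, and bars are standard errors worked back from the edgeR F statistic. Open points did not pass the adjusted p of 0.05, the dotted line is the median of all genes tested and the dashed line marks -1. Of the 46 points 45 lie below 0, from Tk1 at -1.77 up to Rpa1 at -0.03, and Orc2 at 0.57 lies above it.

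The libraries of a genotype were not equally low. With each gene set against its control mean, the median of the 46 genes was -0.04, 0.04 and 0.01 on the log2 scale in control replicates 1, 2 and 3. In TgAPPsweOCN it was -0.75, -0.57 and -0.57. Control replicate 1 was the lowest of its genotype for 24 of the 46 genes (52.2%, against 38.8% of all genes). Control replicate 2 was the highest for 21 (45.7%, against 32.1%). TgAPPsweOCN replicate 1 was the lowest of its genotype for 31 of the 46 genes (67.4%, against 37.7% of all genes), and replicate 2 was the highest for 28 (60.9%, against 35.8%). Among the mitosis genes these shares were 63.2% and 71.1%, and among the other replication genes 44.6% and 53.6%, and the differences between lists were not tested. The summed stromal markers were also lowest in replicate 1 and highest in replicate 2, with 651.6 FPKM in replicate 1, 913.3 in replicate 2 and 737.5 in replicate 3, and without Spp1 at 170.4, 241.8 and 207.9. The myeloid sum was 23050, 19390 and 20450, and without Lyz2 it was 14330, 14010 and 13620. Neutrophil markers (18.39, 51.65 and 35.05 FPKM) and T and NK cell markers (1.0, 2.56 and 1.76) had the order of the stromal sum. B cell, erythroid and endothelial markers did not. The part of any of these sums in this spread was not tested. The median SD of a replication gene between libraries was 0.08 in controls and 0.12 in TgAPPsweOCN on the log2 scale, against 0.10 over all genes in each. Without TgAPPsweOCN replicate 1, 39 genes were called lower, 6 rather than 10 passed the fold threshold as well, and the median was -0.57. The genes that left the fold threshold without it were Mcm2 (-0.98), Mcm5 (-0.996), Lig1 (-0.92) and Rrm2 (-0.96), which stayed lower at the adjusted p.

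**Figure D2:**
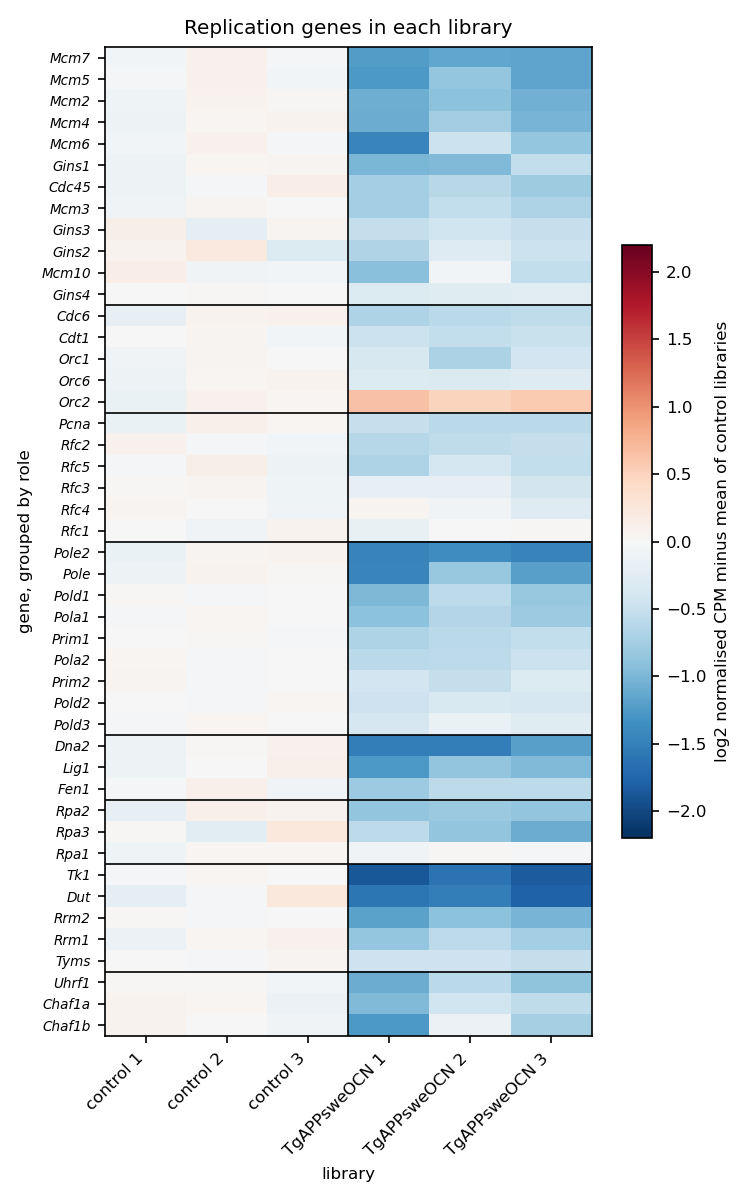
Each row is 1 of the 46 genes, grouped by role, and each column is a library. Colour gives log2 normalised CPM minus the mean of the control libraries, with blue lower and red higher. The 3 TgAPPsweOCN columns are blue in nearly every row, palest in replicate 2 for genes such as Mcm6 and Chaf1b, and the Orc2 row is red in all 3.

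Sequence near the gene starts was also examined. Many of these genes are known to be transcribed under E2F factors. A high share of E2F letters therefore follows from the choice of genes and says nothing about the genotypes. RefSeq windows of 250 bases before to 50 after the start (build GRCm38.p6, the assembly known as mm10) covered 39 of the 46 genes. The E2F letters TTTGGCGC, TTTCCCGC, TTTGCCGC and TTTCGCGC were searched on both strands, and neighbouring matches can share bases. They stood in a window of 15 of the 39 genes (38.5%), of 24.4% of other replication genes, of 4.66% of the 10117 tested genes with a window and of 2.26% of all 32851 windows. Matches that lay before the start in 6 helicase, licensing and polymerase genes are printed here, 5′ to 3′ on the gene's strand, with the matching letters in capitals, because they show how the pattern sits in the genes of these results.
Mcm5, chr8:75109326-75109397, plus strand: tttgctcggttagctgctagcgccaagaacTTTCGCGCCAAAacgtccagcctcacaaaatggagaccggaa
Mcm6, chr1:128359715-128359845, minus strand: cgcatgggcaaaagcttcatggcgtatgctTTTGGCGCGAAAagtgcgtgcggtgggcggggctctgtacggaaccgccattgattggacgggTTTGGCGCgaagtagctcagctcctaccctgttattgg
Mcm7, chr5:138172011-138172078, minus strand: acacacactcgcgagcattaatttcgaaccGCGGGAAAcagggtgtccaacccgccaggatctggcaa
Orc1, chr4:108579397-108579453, plus strand: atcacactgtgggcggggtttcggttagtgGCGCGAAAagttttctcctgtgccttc
Cdc6, chr11:98907983-98908050, plus strand: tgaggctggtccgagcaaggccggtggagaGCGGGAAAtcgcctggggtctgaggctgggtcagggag
Pola1, chrX:93632256-93632323, minus strand: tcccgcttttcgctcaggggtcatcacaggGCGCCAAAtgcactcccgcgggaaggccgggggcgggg
In Mcm5 and in the upstream match of Mcm6 a listed word and the reverse complement of another shared bases, giving runs of 12 letters, and Mcm6 had a further match 47 bases before its start. Gins3, Rfc3 and Uhrf1 also had a match before the start. In Mcm3, Cdt1, Lig1, Pold1, Pold3 and Pole2 the matches lay within the 50 bases after it.

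Among genes with the E2F letters, the median log2 fold change was -0.78 and ran from -1.44 (Pole2) to -0.25 (Rfc3). All 15 were called lower, beside 31.5% of all genes. Among the 24 whose windows lacked the letters, 19 were called lower and the median was -0.62. That second group held the deepest falls of the list, Tk1 at -1.77 and Dut at -1.64, as well as Rpa1, Rfc1, Rfc4, Mcm10 and Orc2. No match says only that these letters are not in this window. Mcm4, Gins1, Gins2, Gins4, Rfc2, Prim2 and Pole had no window in the table, and all 7 were called lower, with a median of -0.57. Differences between these groups were not tested. The cell cycle genes homology region (CHR) letters, TTTGAA, known from promoters of mitosis genes, were in 5 of the 39 genes (12.8%), in 24 of 31 mitosis genes (77.4%) and in 14.5% of tested genes. CCAAT stood in 61.5% of the replication genes, 48.9% of other replication genes, 74.2% of mitosis genes and 43.1% of tested genes. The GC box GGGCGG, which can share bases with an E2F match, stood in 74.4% of the replication genes and 67.8% of tested genes. That was below its share in other replication genes (84.4%) and mitosis genes (83.9%).

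**Figure D3:**
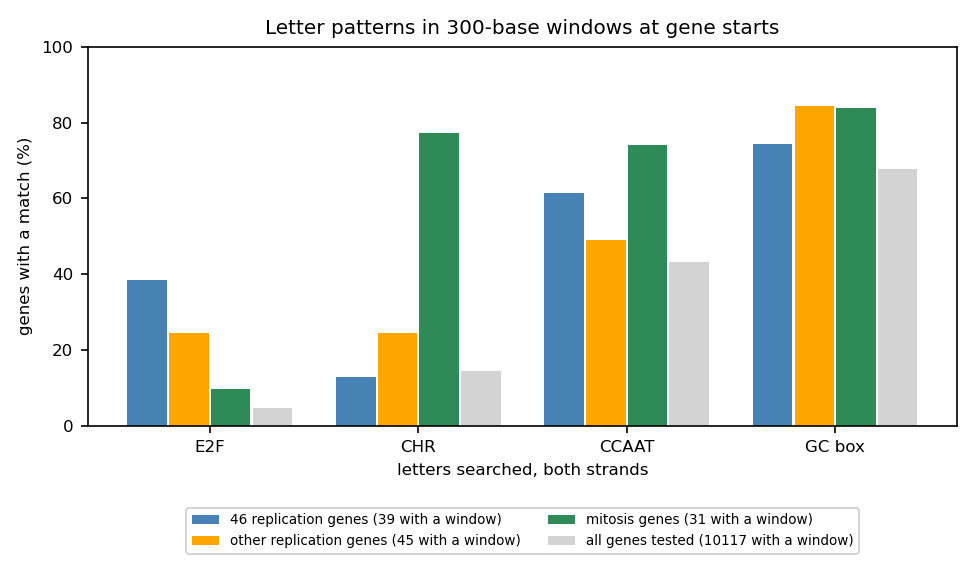
Bars give the percentage of genes with at least 1 match on either strand in a window from 250 bases before to 50 bases after the start, for 4 letter patterns and 4 gene lists. Of the 4 lists, the E2F letters are most frequent among the replication genes (38.5%, against 4.66% of tested genes), and the CHR letters among the mitosis genes (77.4%, against 12.8% of the replication genes).

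Of 12 helicase genes 11 were called lower in TgAPPsweOCN, beside 31.5% of all genes, and the median log2 fold change of the 12 was -0.77. Values per library are normalised CPM, scaled by the TMM method, and are given in the order of replicates 1, 2 and 3. Mcm7, a ring subunit, had 74.2, 81.8 and 75.2 CPM in control and 32.98, 35.05 and 34.4 in TgAPPsweOCN. All TgAPPsweOCN values lay below all control values, and the log2 fold change was -1.17, SE 0.0626. Mcm5 had 87.1, 93.9 and 84.5 CPM in control and 36.9, 48.95 and 39.6 in TgAPPsweOCN (log2 fold change -1.08, SE 0.104). Mcm2 had 62.8, 71.4 and 68.2 CPM in control and 31.9, 35.97 and 32.5 in TgAPPsweOCN (log2 fold change -1.01, SE 0.074). These genes passed the fold threshold, with Mcm5 and Mcm7 among those whose E2F letters are shown above. Groups of Mcm2, Mcm5 and Mcm7 did not overlap, beside 34.9% of all genes with every TgAPPsweOCN library lower.

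The other ring subunits were called lower too, with unequal spread. Mcm4 had 58.1, 64.9 and 66.6 CPM in control and 29.5, 37.3 and 31.1 in TgAPPsweOCN (log2 fold change -0.95, SE 0.0969). Mcm3 had 84.9, 93.7 and 90.02 CPM in control and 53.2, 61.7 and 55.98 in TgAPPsweOCN and the smallest difference of the ring (log2 fold change -0.65, SE 0.0719). Mcm6 had 98.3, 110 and 101 CPM in control and 37.8, 74.5 and 56.8 in TgAPPsweOCN, a spread between TgAPPsweOCN libraries that reached from 37.8 to 74.5, with replicate 1 lowest and replicate 2 highest (log2 fold change -0.87, SE 0.201). Without TgAPPsweOCN replicate 1 its log2 fold change was -0.65, and without replicate 2 it was -1.12. Across Mcm2 to Mcm7, log2 fold changes stayed within a range of 0.52, from -1.17 to -0.65. On the FPKM scale, which allows levels of different genes to be compared per length, the 6 ring subunits lay between 19.3 (Mcm4) and 37.9 (Mcm6) in controls and between 8.60 (Mcm4) and 18.8 (Mcm3) in TgAPPsweOCN.

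Cdc45, which completes the active helicase with GINS, had 11.6, 12.3 and 13.9 CPM in control and 7.53, 8.23 and 7.34 in TgAPPsweOCN (log2 fold change -0.71, SE 0.109). The GINS subunits differed by 0.55 in log2 fold change, from Gins1 at -0.83 to Gins4 at -0.27. Gins4 had 25.5, 26.1 and 25.5 CPM in control and 20.8, 21.3 and 21.8 in TgAPPsweOCN, with groups that did not overlap (log2 fold change -0.27, SE 0.0612). Gins2 overlapped between genotypes, with 10.5 in control replicate 3 and 10.6 in TgAPPsweOCN replicate 2, and 70.7% of its exon bases are also exons of Gse1 on the other strand. The call of Gins2 was lost without control replicate 1 (-0.45) or 2 (-0.38) and without TgAPPsweOCN replicate 1 (-0.39) or 3 (-0.47), and that of Gins3 without control replicate 3 (-0.48) or TgAPPsweOCN replicate 3 (-0.48). Mcm10, which activates the helicase at origins, had 19.1, 16.3 and 16.5 CPM in control and 9.18, 16.6 and 11.9 in TgAPPsweOCN and did not pass (log2 fold change -0.46, SE 0.189), with TgAPPsweOCN replicate 2 inside the control range. It was called without that library (-0.71), in DESeq2 (-0.46), with library size only (-0.68) and in limma on log2(FPKM + 1) and log2(FPKM + 0.1) (-0.57 and -0.70), and without replicate 1 its value was -0.28.

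Origin licensing genes moved in both directions. Cdc6, which recruits the ring to origins, had 11.6, 13.8 and 13.97 CPM in control and 8.18, 8.67 and 8.88 in TgAPPsweOCN (log2 fold change -0.61, SE 0.109). Cdt1, its partner in loading, had 48.6, 50.8 and 46.4 CPM in control and 34.9, 33.2 and 34.8 in TgAPPsweOCN (log2 fold change -0.50, SE 0.0603). In both genes the groups did not overlap, beside 34.9% of all genes with every TgAPPsweOCN library lower. Orc2, a subunit of ORC, was the exception among the 46 genes, with 19.5, 23.1 and 22.2 CPM in control and 33.7, 30.1 and 32.2 in TgAPPsweOCN. Every TgAPPsweOCN library lay above every control library (log2 fold change 0.57, SE 0.083), and the value ran from 0.30 to 0.61 over the alternative settings, the lower end coming from FPKM. Nif3l1 on the other strand covers 24.0% of the exon bases of Orc2 and was not called (log2 fold change 0.22, edgeR adjusted p = 0.0757).

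The whole ORC was set side by side, including 3 subunits outside the list. Orc1, which binds and hydrolyses ATP and was the least abundant replication gene in controls (1.5 ± 0.0954 FPKM, SD, n = 3), had 4.32, 4.78 and 4.59 CPM in control and 3.59, 2.81 and 3.42 in TgAPPsweOCN (log2 fold change -0.48, SE 0.158). Orc6 had 12.8, 14.2 and 14.5 CPM in control and 11.2, 11.1 and 11.3 in TgAPPsweOCN (log2 fold change -0.31, SE 0.0878). Orc4, which like Orc2 is part of the ORC core, rose (log2 fold change 0.51, SE 0.0663, adjusted p = 1.87e-04), with 29.5, 31.9 and 33.1 CPM in control and 45.9, 45.8 and 43.1 in TgAPPsweOCN. Counts of Orc4 were fractional in all 6 libraries and those of Orc3 in 4, as estimated counts are where reads fit more than 1 place, so their values are less certain. Orc3 (0.01) and Orc5 (0.06) did not pass, and lay at -0.21 and -0.15 under scaling by library size alone, where Orc4 stayed higher (0.30). ORC subunits covered a range of 1.05 in log2 fold change, against 0.52 for the Mcm ring. The call of Orc1 was lost in DESeq2 and without control replicate 2 (-0.45) or 3 (-0.49) or TgAPPsweOCN replicate 2 (-0.38) or 3 (-0.51). That of Orc6 was lost in DESeq2 and without control replicate 3 (-0.28).

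Of the clamp and its loader, 4 of 6 genes were called lower, beside 31.5% of all genes, with a median of -0.39. Pcna, the sliding clamp that holds polymerases on DNA, was the most abundant of the 46 genes, at 242.0 ± 23.1 FPKM in controls and 140.4 ± 2.47 in TgAPPsweOCN (SD, n = 3). It had 240, 289 and 274 CPM in control and 187, 178 and 176 in TgAPPsweOCN and no overlap (log2 fold change -0.57, SE 0.0751). The loader, replication factor C, split between its subunits. Rfc2 had 49.6, 45.4 and 44.4 CPM in control and 30.1, 31.7 and 32.2 in TgAPPsweOCN (log2 fold change -0.57, SE 0.0661). Rfc5 (-0.53) and Rfc3 (-0.25) were also called lower, while Rfc1, its large subunit, had 56.9, 53.99 and 59.5 CPM in control and 50.6, 56.7 and 57.6 in TgAPPsweOCN and overlapping groups (log2 fold change -0.05, SE 0.0702). Rfc4 overlapped as well (-0.09), and its counts were fractional in 5 of 6 libraries. Exons of Rfc2, Rfc4 and Rfc5 overlap those of Lat2 (19.1% of bases), Eif4a2 (13.4%) and Wsb2 (15.4%) on the other strand. The call of Rfc3 was lost in DESeq2, with the filter of at least 1 count in any library (-0.25), and without control replicate 1 (-0.25) or 2 (-0.22) or TgAPPsweOCN replicate 3 (-0.18), and Rfc1 was called lower with library size only (-0.26) and in both limma fits on FPKM (-0.24 and -0.26), as Rfc4 was in the limma fits (-0.26 and -0.31).

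All 9 genes for polymerases and primase in the list were called lower, beside 31.5% of all genes, with a median of -0.60. Polymerase epsilon, the main polymerase of the leading strand, held both genes past the fold threshold. Its catalytic subunit Pole had 28.98, 33.04 and 32.05 CPM in control and 11.4, 17.5 and 13.6 in TgAPPsweOCN (log2 fold change -1.14, SE 0.14). Pole2 had 10.8, 12.6 and 12.7 CPM in control and 4.34, 4.65 and 4.31 in TgAPPsweOCN (log2 fold change -1.44, SE 0.117). Neither gene overlapped between genotypes, beside 34.9% of all genes with every TgAPPsweOCN library lower. The small histone-fold subunits lie outside the list. Pole4 rose, with 19.7, 24.4 and 21.6 CPM in control and 79.03, 68.2 and 74.2 in TgAPPsweOCN (log2 fold change 1.75, SE 0.0918, adjusted p = 1.05e-06), and Pole3 did not pass (0.14, or -0.08 under scaling by library size alone). Levels of the 4 subunits lay within 3.69-fold of each other in controls on the FPKM scale, and within 26.2-fold in TgAPPsweOCN.

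Polymerase delta, which copies the lagging strand, also had subunits with opposite signs. Pold1, the catalytic subunit, had 46.8, 44.6 and 46.01 CPM in control and 23, 30.6 and 25.6 in TgAPPsweOCN (log2 fold change -0.79, SE 0.0989). Pold2 (-0.39) and Pold3 (-0.26) were called lower, and Pold4, an accessory subunit outside the list, rose, with 45.7, 40.8 and 37.2 CPM in control and 62.4, 59.1 and 57.5 in TgAPPsweOCN (log2 fold change 0.53, SE 0.0818, adjusted p = 5.02e-04). The call of Pold3 was lost without control replicate 2 (-0.23). The polymerase alpha-primase complex, which lays down the starting primer, had the narrowest range of the complexes compared. Pola1 had 21, 22.4 and 21.8 CPM in control and 11.7, 13.8 and 12.4 in TgAPPsweOCN (log2 fold change -0.78, SE 0.0847), and Pola2 (-0.54), Prim1 (-0.60) and Prim2 (-0.42) gave a range of 0.36. Every control library lay above every TgAPPsweOCN library for all 4, as for 34.9% of all genes.

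**Figure D4:**
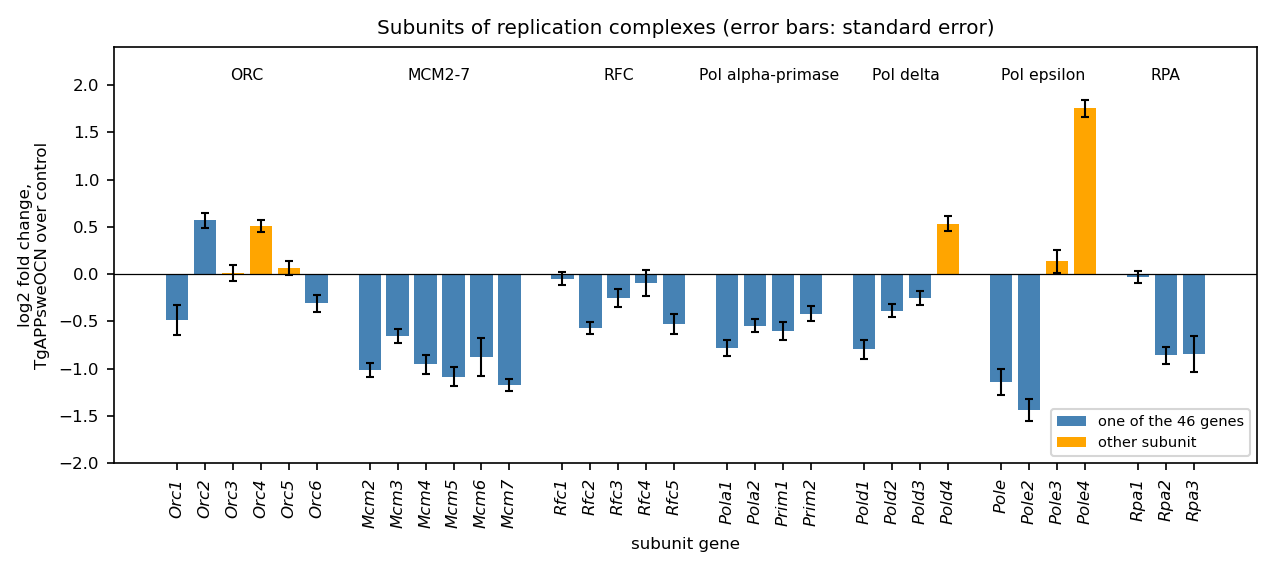
Bars start at 0 and give the log2 fold change of TgAPPsweOCN over control, with standard errors, for each subunit of 7 replication complexes. Blue bars are among the 46 genes and orange bars are other subunits. Mcm2 to Mcm7 lie between -1.17 and -0.65, while polymerase epsilon runs from Pole2 at -1.44 to Pole4 at 1.75 and ORC from Orc1 at -0.48 to Orc2 at 0.57.

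The genes that finish Okazaki fragments were all called lower, beside 31.5% of all genes. Lig1, the ligase that seals the nicks, had 56.4, 61.4 and 65.7 CPM in control and 25.6, 33.6 and 31.04 in TgAPPsweOCN (log2 fold change -1.02, SE 0.105). Dna2, a nuclease and helicase that trims long flaps, had 9.88, 10.9 and 11.4 CPM in control and 3.74, 3.73 and 4.66 in TgAPPsweOCN (log2 fold change -1.41, SE 0.136), and had the lowest level of the 46 genes in TgAPPsweOCN (0.917 ± 0.116 FPKM, SD, n = 3). Fen1, the main flap nuclease, had 43.95, 48.6 and 42.7 CPM in control and 25.9, 30.4 and 30.2 in TgAPPsweOCN (log2 fold change -0.65, SE 0.0844). None of the 3 overlapped between genotypes, beside 34.9% of all genes with every TgAPPsweOCN library lower. Of single-strand binding protein RPA, Rpa2 had 20.4, 25.03 and 24.5 CPM in control and 12.7, 13.2 and 12.7 in TgAPPsweOCN (log2 fold change -0.86, SE 0.0936) and Rpa3 was at -0.84, whereas the large subunit Rpa1 had 62.8, 69.3 and 69.1 CPM in control and 63.4, 67.98 and 65.2 in TgAPPsweOCN, with overlapping groups (log2 fold change -0.03, SE 0.0625). Rpa1 was called lower under scaling by library size alone (-0.25) and in both limma fits on FPKM (-0.24 and -0.25).

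Nucleotide supply held the largest differences of the list. Tk1, the thymidine kinase of S phase, had 45.8, 48.97 and 47.2 CPM in control and 12.9, 15.3 and 13.3 in TgAPPsweOCN. The groups stood far apart (log2 fold change -1.77, SE 0.0806). Dut, which clears dUTP before it enters DNA, had 16.4, 18.4 and 22.1 CPM in control and 6.24, 6.58 and 5.50 in TgAPPsweOCN (log2 fold change -1.64, SE 0.135). Rrm2, the S-phase small subunit of ribonucleotide reductase, had 45.8, 44.3 and 44.7 CPM in control and 19.8, 23.9 and 22.1 in TgAPPsweOCN (log2 fold change -1.03, SE 0.0776), and Rrm1, the large subunit, had 86.1, 97.01 and 100 CPM in control and 52.1, 63.6 and 56.4 in TgAPPsweOCN (log2 fold change -0.72, SE 0.0888). Tyms, which makes dTMP, had 57.9, 56.8 and 61.03 CPM in control and 42.9, 42.5 and 40.5 in TgAPPsweOCN and the smallest difference of the group (log2 fold change -0.48, SE 0.0581). Its counts were fractional in all 6 libraries.

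Several other genes of nucleotide supply were higher. Rrm2b, the p53-inducible small subunit that can replace Rrm2 outside S phase, rose, with 12.4, 14.2 and 16.3 CPM in control and 29.4, 27.1 and 26.6 in TgAPPsweOCN (log2 fold change 0.95, SE 0.102, adjusted p = 5.74e-05). Dck, the deoxycytidine kinase of the salvage route, rose (1.25, SE 0.0759, adjusted p = 2.35e-06), with 56.7, 64.2 and 65.5 CPM in control and 138, 153 and 154 in TgAPPsweOCN. Samhd1, which breaks down dNTPs, rose (1.41, SE 0.0747, adjusted p = 1.10e-06), with 364, 305 and 327 CPM in control and 857, 915 and 878 in TgAPPsweOCN. Tk2, the mitochondrial thymidine kinase, was lower (-0.48, SE 0.0664, adjusted p = 2.80e-04). These 4 genes, and Orc4, Pold4 and Pole4, kept their direction and call in all 14 alternatives.

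**Figure D5:**
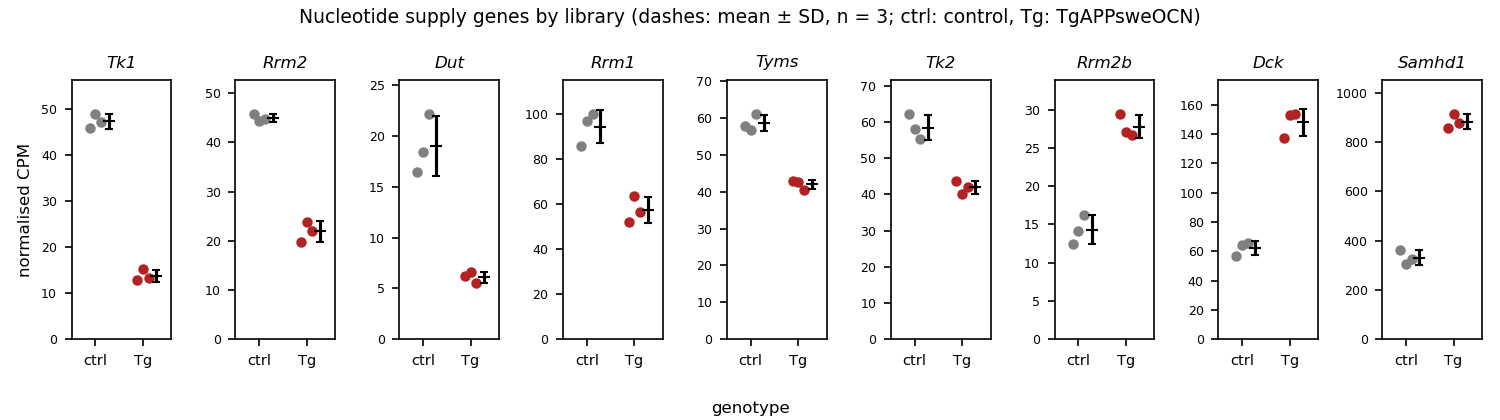
Each panel shows normalised CPM of 1 gene on its own axis from 0, with 3 control libraries (grey) and 3 TgAPPsweOCN libraries (red), and the mean ± SD beside them. Tk1, Rrm2, Dut, Rrm1, Tyms and Tk2 sit lower in TgAPPsweOCN, and Rrm2b, Dck and Samhd1 sit higher, with no overlap between genotypes in any panel. Over all genes, every TgAPPsweOCN library was lower for 34.9% and higher for 34.8%.

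The chromatin genes of the list, which rebuild and mark nucleosomes behind the fork, were all called lower, beside 31.5% of all genes. Uhrf1, which brings the maintenance DNA methyltransferase to newly copied DNA, had 55.6, 55.5 and 52.5 CPM in control and 25.6, 36.1 and 29.6 in TgAPPsweOCN (log2 fold change -0.84, SE 0.112). Chaf1a and Chaf1b encode the large and middle subunits of the histone chaperone CAF-1. Chaf1a had 28.8, 27.98 and 24.97 CPM in control and 13.9, 20 and 18.4 in TgAPPsweOCN (log2 fold change -0.64, SE 0.128), and 33.6% of its exon bases overlap Ubxn6. Chaf1b had 16.7, 15.9 and 15.02 CPM in control and 6.59, 14.4 and 9.57 in TgAPPsweOCN, with replicate 2 close to the control range (log2 fold change -0.64, SE 0.234). Its spread was the widest of the group. It was called without TgAPPsweOCN replicate 2 (-0.97) and lost its call without any other library, at -0.40 without TgAPPsweOCN replicate 1, -0.59 without replicate 3, and -0.69 to -0.61 without a control library.

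A further 56 replication genes were tested, from a list that completes the pathway and was also written with earlier results known. Of these 31 (55.4%) were lower and 8 higher, beside 31.5% and 32.5% of all genes, with a median log2 fold change of -0.35. The deepest falls were those of Dscc1, a subunit of an alternative clamp loader (-1.44, SE 0.232, adjusted p = 6.64e-04), Gmnn, which encodes the licensing inhibitor geminin (-1.30, SE 0.135, adjusted p = 4.96e-05), and Top2a, which untangles sister chromatids (-1.24, SE 0.0741, adjusted p = 2.18e-06). Dscc1 was also low in level, with 2.76, 2.86 and 2.73 CPM in control and 1.25, 1.06 and 0.744 in TgAPPsweOCN. The remaining 17 did not pass, among them Rbbp4 (-0.03), Top2b (-0.06), Timeless (-0.19) and Mtbp (-0.28). By part of the pathway, 8 of 14 origin and firing genes, 12 of 20 fork genes, 7 of 12 chromatin genes and 4 of 10 nucleotide genes were lower, the last of these near the share of all genes.

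Set beside mitosis genes, which act after replication is complete, the replication genes had the smaller median. Of 38 mitosis genes 37 were lower (97.4%, beside 31.5% of all genes), with a median of -1.12, led by Ccnb2 (-1.83), Plk1 (-1.80) and Cenpa (-1.80), and Bub3 did not pass (-0.03). Both lists were chosen with the contrast known, so the difference between their medians carries no test.

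Some replication genes share sequence with a neighbour on the other strand, and whether the libraries or the counting kept strand is not given in the sources used here. In the GENCODE annotation of mm10, exons of 12 of the 46 genes overlap another gene's exons on the opposite strand, over 2.16% to 70.7% of their bases, so without strand the reads of each pair cannot be told apart there. Besides those named above these were Mcm7 (Ap4m1, 10.8%), Orc6 (Vps35, 7.14%), Lig1 (Zswim9, 6.17%), Tk1 (Afmid, 5.76%), Fen1 (Tmem258, 5.37%) and Cdc45 (Ufd1, 2.43%). Over these genes the partners' log2 fold changes ran from -0.81 (Ap4m1) to 0.63 (Cops6, which also overlaps Mcm7). Counts of Pola2 were fractional in 2 libraries and those of Mcm10 in 1.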

How the data were processed

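Bulk RNA-seq of tdTomato+ BMSCs from 3 control and 3 TgAPPsweOCN libraries, each 6 months of age, was analysed. The authors deposited estimated counts and FPKM values per gene, both used here, and a table of log2 ratios and p-values of their own comparison, which was not used. Per the submitters' processing notes the tools were HISAT2 2.0.4, Bowtie2 2.2.5, RSEM 1.2.12 and DESeq2 1.4.5, with genome build mm10. The authors' methods state that rRNA, low-quality and adaptor reads were removed and that samples with an RNA integrity number above 2 were kept. The deposited FPKM is scaled by gene length and total fragments and not by TMM.

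Estimated counts, of which 13.3% to 14.4% of genes per library were fractional, were rounded and compared between genotypes in edgeR 4.0.16 (R 4.3.3) with filterByExpr, TMM and the quasi-likelihood test, and p was adjusted by Benjamini-Hochberg over 12701 genes. Genes were called at an adjusted p of 0.05 or less, with and without an absolute log2 fold change of 1. Each SE was worked back from the test, as the absolute log2 fold change over the square root of the F statistic. Totals were 19340810 to 22037840 counts, and the floor of 3 counts covers counting error only. The biological coefficient of variation was 9.85%. Within a genotype, the median chi-square per gene between a pair of libraries was 1.12 to 2.67, and none was a duplicate. p-values measure the spread between these libraries. Alternatives were DESeq2 1.42.0, RLE size factors, library size only, filters of at least 1 count in any library or 10 in every library, a replicate block, limma 3.58.1 on log2(FPKM + 1) and on log2(FPKM + 0.1), and leaving out each library.

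The 46 genes and the comparison lists were chosen with earlier results of these data known. Named genes were, per role, those past both thresholds or else the largest change, the one nearest to 0, the 3 with the highest control FPKM, rises, Mcm2 to Mcm7, the 3 largest falls and rises of the other lists, and App. Remaining subunits, and other genes outside this rule, were named after their values were seen. Some marker genes are not reported here, and 0 of 9 mitochondrial transcripts had a row used here. Promoter windows come from RefSeq (GRCm38.p6), exon overlaps from GENCODE M21. No proteins were analysed here. Python 3.11.15 was used for tables and plots, with pandas 2.3.3, numpy 2.4.6 and matplotlib 3.10.9.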

Additional observations from a re-analysis of the deposited data

How the results depend on the processing

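The count of replication genes called lower stayed within 1.5 times its value of 41 in every alternative, from 36 (without control replicate 2, and without TgAPPsweOCN replicate 3) to 45 (limma on FPKM), and 34 of the 41 were lower and past the adjusted p in all 14 alternatives. The count that also passed the fold threshold was 17 with library size only and 17 with limma on log2(FPKM + 0.1), against 10, and ran from 6 (without TgAPPsweOCN replicate 1) to 12 when single libraries were left out, with 6 genes called in each of those fits. The median log2 fold change of the 46 genes, -0.64, was -0.85 with library size only, -0.77 with limma on log2(FPKM + 1) and -0.86 with limma on log2(FPKM + 0.1), settings that moved the median of all genes from -0.02 to -0.23, -0.16 and -0.22. It ran from -0.71 to -0.57 over the fits without 1 library. Rfc1 changed sign without TgAPPsweOCN replicate 1 (0.011) and ran from -0.087 to 0.011 over those fits. Of 644 values for the 46 genes, 605 kept direction and call, 25 lost the call, 13 gained it and 1 changed sign.

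With a replicate block, 40 replication genes were called lower and 10 with the fold threshold, with a median of -0.65, and Orc1 lost its call (edgeR adjusted p = 0.0535). Deviations of libraries with the same replicate number correlated at 0.0127, 0.00664 and 0.141, so the numbers were not taken as pairing the libraries. Counts of the 46 genes ran from 91 to 6170 in control libraries and from 56 to 3746 in TgAPPsweOCN libraries, above the floor of 3 counts.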

Other observations

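Of 18 E2F factors, pocket proteins and G1/S kinases 11 (61.1%) were lower and 6 higher in TgAPPsweOCN (edgeR adjusted p of 0.05 or less), beside 31.5% and 32.5% of all genes, so the count of higher genes was at the share of all genes. Past the fold threshold were E2f2, an activator E2F (log2 fold change -1.41, SE 0.134), E2f7, an atypical repressor E2F (-1.39, SE 0.142), Tfdp2, a dimer partner of E2F (-1.09, SE 0.122), and Cdkn1a, which encodes the cyclin-dependent kinase inhibitor p21 (1.85, SE 0.109). Cdkn1a had 151, 114 and 124 normalised CPM in control and 433, 507 and 465 in TgAPPsweOCN, and the groups did not overlap. E2f1, an activator, was lower (-0.35), while E2f3, E2f4, Rb1 and Ccne1 were higher (0.67, 0.36, 0.32 and 0.62).

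Of the 39 genes with a window, 9 had a start within 500 bases of that of a gene on the opposite strand, and 7 of these neighbours were tested. Ap4m1, 138 bases from Mcm7, was lower (log2 fold change -0.81, edgeR adjusted p = 1.70e-05). Prpf38a, 118 bases from Orc1, and Umad1, 147 bases from Rpa3, were higher (0.61 and 0.47), while Orc1 and Rpa3 were lower. Ufd1 beside Cdc45, Tmem258 beside Fen1, Zswim9 beside Lig1 and Smyd4 beside Rpa1 did not pass.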
